A study of Gallus gallus with 8 samples.

Results

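The 200 chicken (Gallus gallus) genes described here rose to a like extent in trunk neural crest cells whichever of DLC1, PHF5A or SF3B1 was knocked out with Cas9. They were chosen from a deposited table of 30862 Ensembl features. Features had to lie on 1 of 25 autosomes and span over 1 kb and up to 300 kb, which left 24413. Levels were counts per 1000000 non-mitochondrial counts (CPM), and 0.5 was added to each before the choice. A feature was eligible if its mean over the 6 knockout libraries reached 5 and its highest knockout group mean was at most 2 times the lowest, which 8893 features met. CPM values below are given without the added 0.5 unless stated. The 200 eligible features with the highest ratio of the lowest knockout library to the higher control were taken, and that ratio is called the rule ratio below. The knockout and control values therefore chose the members, so their rise is a description and carries no test. All 6 knockout libraries were set against the same 2 controls. A rise shared by the knockouts therefore cannot be told apart from low values particular to those controls.

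RNA was read from sorted GFP+ primary cells of the trunk neural crest, and all groups carried this sort. The control group received a scrambled guide RNA, and the other groups received guides against DLC1, PHF5A or SF3B1. There were 4 groups of 2 libraries. A knockout's libraries came from 2 different guides, so their spread joins guide and library differences, and the labels do not say whether libraries came from separate cultures. P-values therefore measure only the spread between these libraries.

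The trunk neural crest is a migratory embryonic population that leaves the neural tube and forms sensory and sympathetic neurons, glia and pigment cells. SF3B1 is the large scaffold of SF3b, a subcomplex of the U2 snRNP that holds the branch point of an intron during splicing, and PHF5A is a small SF3b subunit beside the branch point pocket. DLC1 is known as a tumour suppressor. The comparison asked which transcripts rose to a like extent when any of the 3 was targeted.

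The deposited IDs came without gene names, and 0 of 25635 genes in the RefSeq table at hand carried an Ensembl ID. Names, functions, sequences, the markers of neural crest and other cell types, and the level of each targeted gene were not analysed here. Members are described by rank and by position on GRCg6a, the build in the submitters' processing notes, and IDs are printed only for the 2 members of highest ratio. Each deposited length was the whole genomic span of the feature, so levels could not be set per transcript length and are not ranked between genes.

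Total counts ran from 18226753 to 34698250 per library, with the DLC1 and PHF5A libraries deepest. Mitochondrial transcripts took 25.9% and 21.4% of counts in the controls and 8.01% to 19.6% in the knockouts. The W chromosome, which is female-specific, took 0.198% of non-mitochondrial counts in control replicate 1 and 0.00279% in control replicate 2, so the controls differed on W. In the knockouts it took 0.0402% to 0.259%. In bulk RNA, more cells of a type and more RNA per cell cannot be told apart.

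The 200 members were minor transcripts in the control cells and several times more abundant in every knockout library. Together they took 0.16% (Wilson 95% interval 0.158 to 0.162) and 0.14% (0.138 to 0.142) of non-mitochondrial counts in the controls. In the DLC1 knockouts they took 0.538% and 0.427%, in the PHF5A knockouts 0.66% and 0.582%, and in the SF3B1 knockouts 0.582% and 0.472%. By the rule, every knockout library lay above both controls. The group mean was 0.15% ± 0.0142 for controls, 0.483% ± 0.0785 for DLC1, 0.621% ± 0.0558 for PHF5A and 0.527% ± 0.0784 for SF3B1 libraries (SD, n = 2 each). These were 3.22, 4.14 and 3.51 times the control mean for DLC1, PHF5A and SF3B1.

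The median member stood at 4.65 and 4.05 CPM in the controls. It stood at 17.9 and 13.5 CPM in the DLC1 libraries, 22.1 and 19.8 in the PHF5A libraries and 20.1 and 15.7 in the SF3B1 libraries. The rule set the knockout libraries apart from the controls, and guide 1 was the higher of each pair. Across all eligible features the corresponding medians were 35.1 and 33.1 CPM in the controls and 38.7 to 44.9 CPM in the knockouts, a far smaller step. Members were taken for a large step, so this contrast is a property of the choice. The member with fewest reads held 3 counts in control replicate 1 and 5 in control replicate 2, and 44 and 51 members held under 30 counts there. In the knockout libraries no member held fewer than 40 counts, and no member was at 0 in any library. A count of 3, the floor used here, corresponded to 0.211 and 0.209 CPM in the controls.

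**Figure D1:**
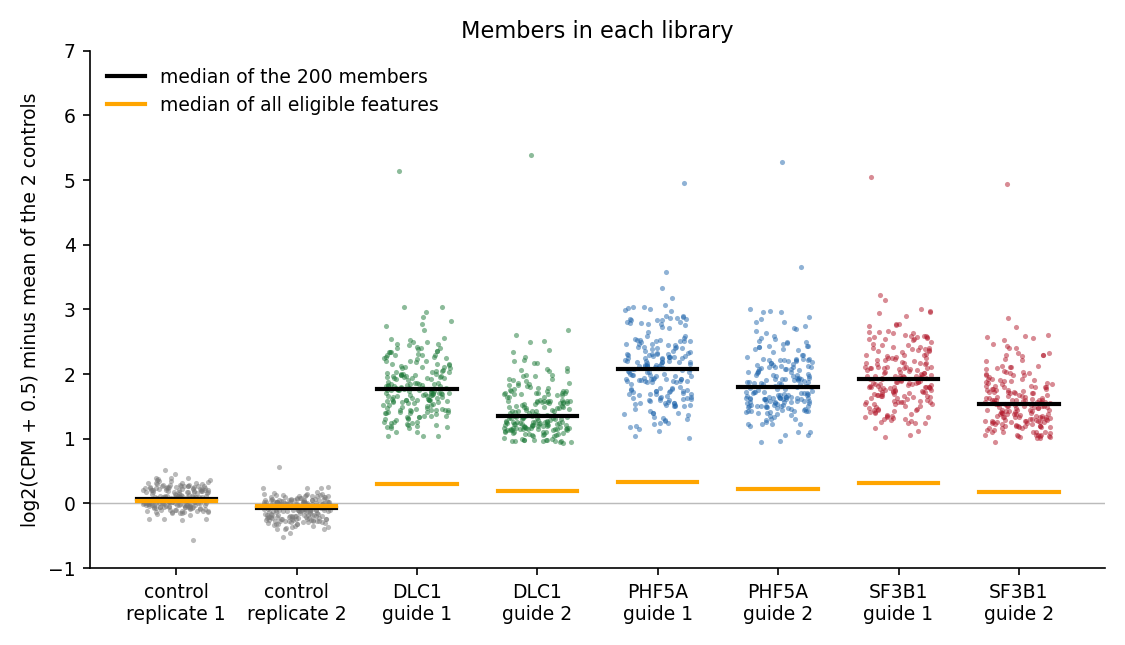
Each point is 1 of the 200 members in 1 library, as log2(CPM + 0.5) minus its mean over the 2 controls. Black lines mark the members' medians, which ran from 1.35 in the guide 2 library of DLC1 to 2.09 in the guide 1 library of PHF5A, and orange lines mark the medians of all eligible features, which ran from 0.174 to 0.338 in the knockouts.

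The rule ratio had a median of 2.15 and ran from 1.906 to 28.1, with quartiles at 2.00 and 2.43. For 153 members the lowest knockout library was at least 2 times the higher control, for 41 it was at least 2.5 times, for 15 at least 3 times and for 3 at least 4 times. At the lower edge of the list the last 2 members had ratios of 1.907 and 1.906, and the next 2 features, just outside it, had 1.903 and 1.902. The edge is therefore a matter of small differences. All 6 knockout libraries lay above both controls in 3102 of the 8893 eligible features (34.9%) and, by the rule, in all 200 members.

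**Figure D2:**
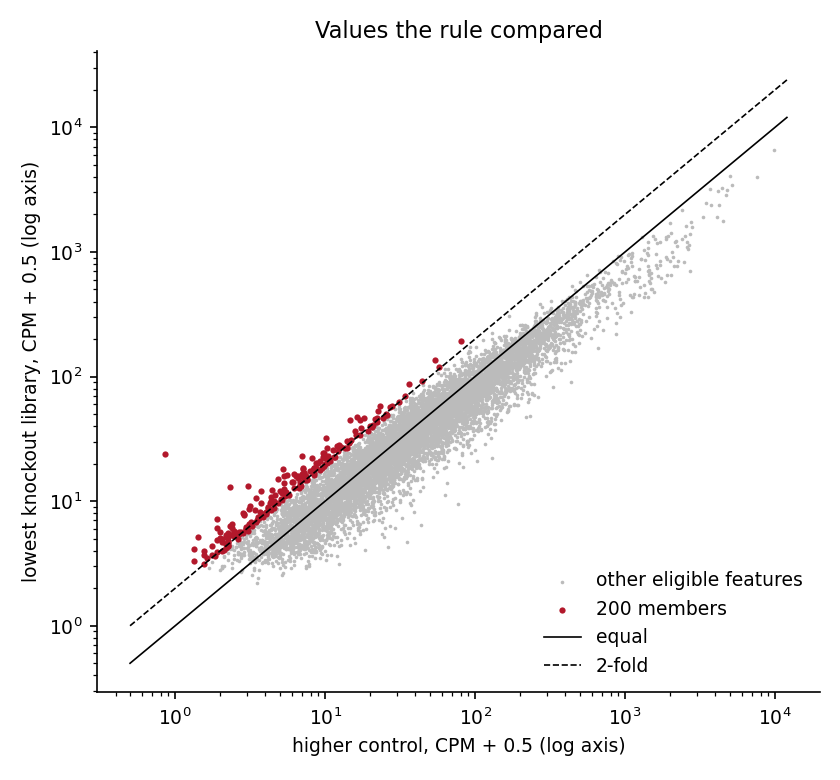
Each point is an eligible feature, with the higher control on the horizontal axis and the lowest knockout library on the vertical axis, both as CPM + 0.5 on log axes. The 200 members, in red, lie around and above the dashed 2-fold line, and 1 of them stands far from the rest at the left.

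That member, ENSGALG00000048209, spans 3.97 kb on chromosome 19 (195297 to 199262, minus strand). It held 3 and 5 reads in the controls, which is 0.211 and 0.349 CPM. It held 842 and 940 reads with the DLC1 guides (27 and 32.1 CPM), 743 and 807 with the PHF5A guides (23.5 and 29.6 CPM) and 447 and 356 with the SF3B1 guides (25.2 and 23.4 CPM). The gene was close to the detection floor in both controls and stood at nearly the same level in all 6 knockout libraries. Pooled over libraries, 4135 knockout reads against 8 control reads gave a ratio of 96.9 (exact binomial 95% interval 49.1 to 225, for counting error only). The same counts ranked this gene first, so the interval leaves out that choice and the spread between libraries. Its rule ratio was 28.1, and the next was 5.64. With 0.1 CPM added in place of 0.5 its ratio was 52.3, and with 2 CPM added it was 10.8.

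The features beside it on chromosome 19 did not share this pattern. The feature 451 bp away on its lower-coordinate side (185828 to 194845, minus strand) stood at 1.34 and 3.98 CPM in the controls and between 1.23 and 10.4 CPM in the knockouts, so its groups overlapped. The feature 2825 bp away on the other side (202088 to 207140, minus strand) stood at 48.5 and 55.4 CPM in the controls. In the knockouts it ran from 66.6 to 89.9 CPM, above both controls with a rule ratio of 1.2.

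Among 9529 features of the same chromosomes and spans with at least 5 CPM in the knockouts, the 3 whose log2 values over the 8 libraries were most like this gene had a Pearson r of 0.991, 0.991 and 0.989, a description over 6 knockout and 2 control points. They lay on chromosome 10 (20451000 to 20466338), chromosome 26 (1694850 to 1715334) and chromosome 22 (1337741 to 1346169). Their levels were 32.4 and 31.1, 30.8 and 29.9, and 19.4 and 18.8 CPM in the controls. In the knockouts they ran from 50.7 to 58.4, 51.9 to 58.7 and 28.1 to 29.9 CPM. Their even knockout levels resembled those of the chromosome 19 gene, while their ratios of 1.56, 1.67 and 1.44 left all 3 outside the list.

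The member of second rank, ENSGALG00000020253, spans 14.7 kb on chromosome 4 (20610698 to 20625391, minus strand). It stood at 1.69 and 1.82 CPM in the controls. It reached 17.9 and 13.2 CPM with the DLC1 guides, 22.3 and 28.0 with the PHF5A guides and 17.3 and 12.6 with the SF3B1 guides. All knockout libraries lay above both controls, the PHF5A libraries were the highest, those of DLC1 and SF3B1 overlapped, and the mean of the knockouts was 8.45 times that of the controls on the CPM + 0.5 scale.

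The member ranked 3 spans 38.3 kb on chromosome 14 (14040401 to 14078746, minus strand). It rose from 2.54 and 1.89 CPM in the controls to 20.4 and 13.5 with the DLC1 guides, 23.9 and 18.2 with the PHF5A guides and 20.1 and 12.6 with the SF3B1 guides. Guide 1 was the higher library of each knockout.

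The member ranked 4 has one of the longer spans, 224 kb on chromosome 12 (11416141 to 11639700, minus strand). It stood at 1.27 and 1.4 CPM in the controls, 7.84 and 6.74 in DLC1, 7.84 and 10.2 in PHF5A and 14.2 and 12.9 in SF3B1 knockout. Unlike the members above it, this gene was highest in both SF3B1 libraries.

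The member ranked 5 lies on chromosome 1 (136395108 to 136425533, minus strand), and its control values of 0.915 and 0.698 CPM rested on 13 and 10 reads. It stood at 7 and 4.62 CPM in DLC1, 8.79 and 6.57 in PHF5A and 7.68 and 7.3 in SF3B1 knockout. Its 6 knockout values were 3.61 times the higher control or more on the CPM + 0.5 scale, and 2.27 times or more with 2 CPM added.

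The members ranked 6 to 10 had rule ratios from 3.44 down to 3.18, and without control replicate 1 those of ranks 6 and 10 were 5.34 and 5.07. That of rank 6 (chromosome 12, 14845519 to 14926229) stood at 4.72 and 2.86 CPM in the controls and at 17.5 to 34 CPM in the knockouts. That of rank 7 (chromosome 7, 11341296 to 11393985) stood at 2.54 and 3.21 CPM in the controls. On the CPM + 0.5 scale its 3 knockout group means were within 1.04 times each other, the closest agreement among the first 10. That of rank 8 (chromosome 11, 17807235 to 17852384) went from 6.55 and 5.66 CPM to between 22.4 and 45.4 CPM.

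That of rank 9 (chromosome 3, 77240482 to 77263108) went from 1.41 and 1.26 to between 5.64 and 10.9 CPM. That of rank 10 (chromosome 1, 178528064 to 178724915, a span of 197 kb) went from 9.65 and 5.87 to between 31.7 and 64.6 CPM. In each of these 5 the lowest knockout value came from a guide 2 library of DLC1 or SF3B1.

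**Figure D3:**
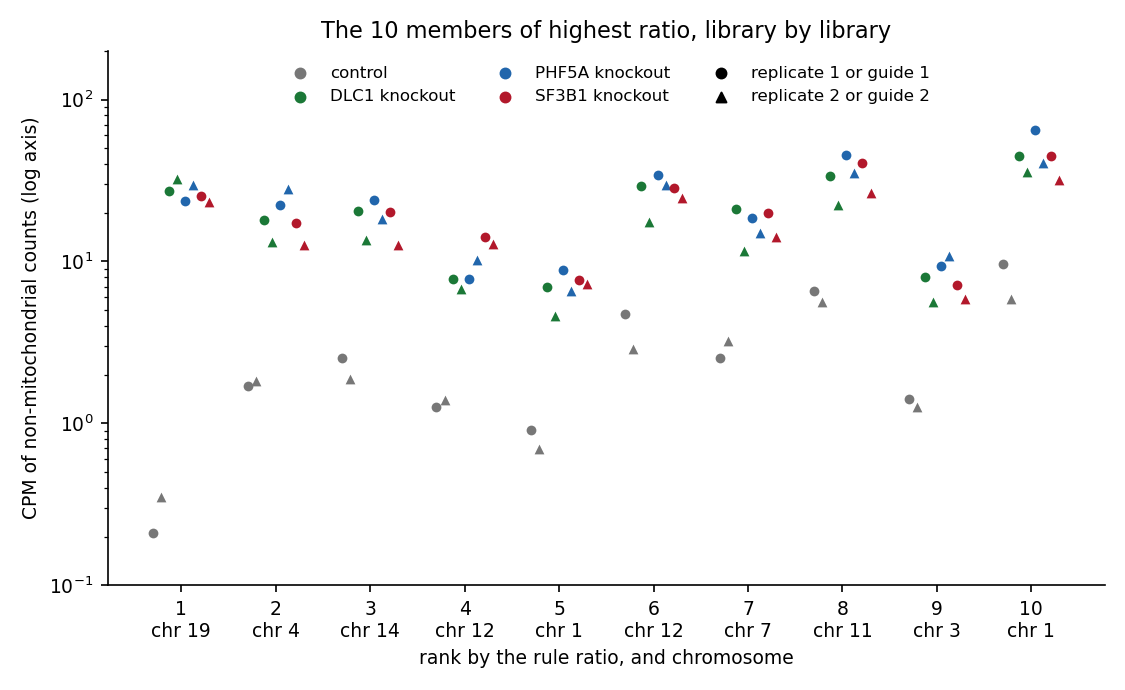
Points give the CPM of the 10 members of highest rule ratio in each library, on a log axis, coloured by group, with circles for replicate 1 or guide 1 and triangles for replicate 2 or guide 2. The gene on chromosome 19 is the only one of the 10 below 0.5 CPM in the controls, and the knockout points of every gene lie above its control points.

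The rise reached genes of other sizes and levels as well. The member with the most counts, of rank 53 on chromosome 8 (21151297 to 21166570, minus strand), stood at 79.6 and 56.6 CPM in the controls. It reached 240 and 193 CPM with the DLC1 guides, 282 and 255 with the PHF5A guides and 227 and 267 with the SF3B1 guides, all above both controls. The member of shortest span, 1.56 kb on chromosome 17 (1015170 to 1016725, minus strand), rose from 36.0 and 25.1 CPM to between 86.6 and 148 CPM. The member of longest span, 286 kb on chromosome 2 (58581640 to 58867298, minus strand), rose from 4.44 and 4.82 CPM to between 12 and 23 CPM.

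Evenness over the 6 knockout libraries varied among the members. The SD of log2(CPM + 0.5) over those libraries ran from 0.109 to 0.671, with a median of 0.333. The most even member, of rank 195 on chromosome 28 (2551436 to 2559746, plus strand), held 19.9 and 23.8 CPM in the controls and 46 to 56.3 CPM in the knockouts. The least even, of rank 24 on chromosome 15 (9177545 to 9196324, plus strand), held 2.39 and 1.61 CPM in the controls. It reached 19.7 and 7.38 CPM with the DLC1 guides, 28.9 and 17.7 with the PHF5A guides and 22.5 and 12.6 with the SF3B1 guides. Eligible features that were no members and lay in the tertile of lowest control level had a median SD of 0.295, and all eligible features one of 0.249.

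Across all features the 3 knockouts were compared with control by edgeR's quasi-likelihood test on 15619 features kept by a filter on low counts, with library sizes scaled by TMM (trimmed mean of M-values), with calls at a Benjamini-Hochberg adjusted p under 0.05. All 200 members passed the filter. In DLC1 knockout 200 members were called raised, where 10.3% of all tested features were. In PHF5A knockout all but 1 were, against 17.9% of all, and in SF3B1 knockout 200, against 11.0%. In all 3 knockouts 99.5% of members were called raised, against 4.76% of all. Nothing is read from these counts, because the same contrasts chose the members and all 3 comparisons share the 2 controls. The member without a call in PHF5A knockout was that of rank 200 on chromosome 6 (17423610 to 17504937), with a log2 fold change of 0.911 there (adjusted p = 0.0576, edgeR).

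On the TMM scale the members' median log2 fold change was 1.53 in DLC1 knockout (0.871 to 6.52), 1.85 in PHF5A knockout (0.911 to 6.29) and 1.60 in SF3B1 knockout (0.801 to 6.15). The medians of all tested features were 0.0987, 0.102 and 0.0415. Scaled by library size alone the medians of all features were 0.478, 0.528 and 0.489, and those of the members 1.92, 2.29 and 2.06. A change of scaling moves all features by nearly the same amount.

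Fewer members were called in some fits without 1 library, each of which left 1 library in a group. In DLC1 knockout 65 members were called without control replicate 2 and 60 without the guide 1 library of DLC1, in fits that called 1.21% and 1.2% of all features raised. In SF3B1 knockout 108 were called without control replicate 2 (2.93% of all), 54 without the guide 1 library of SF3B1 (0.833% of all), and 1 when the W share was added as a covariate, a fit in which 1 feature of all 15619 was called raised in that knockout. In all 3 knockouts 122 were called without control replicate 1 (1.72% of all), 52 without control replicate 2 (0.5%), 60 without the guide 1 library of DLC1 (0.621%) and 54 without that of SF3B1 (0.627%). Calls over all features thus fell in the same fits. The members' median log2 fold change in SF3B1 knockout was 1.55 with that covariate.

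The levels of the left-out library itself were then read. The rule was applied 8 times, each time without 1 library, and the library left out was set against the others for the 200 features so chosen. Without control replicate 1, 99.5% of the 200 had all 6 knockout libraries above that control, against 39.7% of eligible features. Without control replicate 2 it was 99.5%, against 48.6%. With a knockout library left out, that library lay above both controls for 198 to 200 of the 200 features, against 54.7% to 63.6% of eligible features.

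The 198 belonged to the guide 2 library of DLC1. The median ratio in the left-out library was lowest for that library, at 1.97, and highest for the guide 1 library of PHF5A, at 3.8. For the controls it was 2.01 and 2.28. The remaining libraries made the choice and are also the ones against which the left-out library was read, so these values are largely set by the rule and nothing is read from them.

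Which features were taken depended on single libraries. Without the guide 2 library of DLC1 the rule kept 110 of the 200, and without control replicate 1 it kept 118. It kept 140 without the guide 2 library of SF3B1, 146 without control replicate 2 and 169 to 193 without each of the others. The guide 2 library of DLC1 was the lowest knockout library for 113 members and that of SF3B1 for 59. Control replicate 1 was the higher control for 137.

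Members were raised to a like extent by the rule's cap, and within it the group means had an order. With 2 libraries per knockout this order describes these libraries and was not tested. Per library, the members' median log2 ratio to control was 1.77 and 1.35 in DLC1, 2.09 and 1.81 in PHF5A and 1.93 and 1.54 in SF3B1. The SF3B1 libraries thus overlapped those of both others, while both PHF5A libraries lay above those of DLC1. The PHF5A group mean was the highest of the 3 for 137 members (68.5%), SF3B1 for 49 and DLC1 for 14. DLC1 was the lowest for 126 members (63%). Among eligible features PHF5A was the highest in 31.6% and DLC1 the lowest in 39.9%. Features outside the list with all 6 knockouts above both controls leaned the same way, with PHF5A the highest in 52.7% and DLC1 the lowest in 50.1%, and their median log2 ratios had the same order (0.843 in PHF5A, 0.719 in SF3B1 and 0.677 in DLC1). On the CPM + 0.5 scale the members' median log2 ratio to control was 1.59 in DLC1 (1.02 to 5.27), 1.96 in PHF5A (1.00 to 5.12) and 1.75 in SF3B1 knockout (1.03 to 4.99), and that of eligible features 0.26, 0.282 and 0.24.

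No member was called different between knockouts in the edgeR fit, at an adjusted p under 0.05. Between PHF5A and DLC1, 0 members were called in either direction (0.0% and 0.0064% of all features), and DESeq2 called 2. At an unadjusted edgeR p under 0.05, 31 were higher in PHF5A (15.5%, against 7.39% of all features). In DLC1 1 was higher (0.5%, against 4.81%). Between SF3B1 and DLC1, 0 were called (2.52% and 2.46% of all), and DESeq2 called 8. Unadjusted, 17 were higher in SF3B1 (8.5%, against 14.5% of all) and 12 in DLC1 (6.0%, against 12.4%). Between SF3B1 and PHF5A, 0 were called (0.365% and 0.749% of all), and DESeq2 called 4. Unadjusted, 3 were higher in SF3B1 (1.5%, against 8.0% of all) and 33 in PHF5A (16.5%, against 9.46%). Shares of all features called by DESeq2 between knockouts are not given here. The rule capped these differences, so these counts are a property of the choice and do not show that the knockouts acted alike.

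The rule read the lowest knockout library and took no account of which guide was the higher, yet members leaned to guide 1. Guide 1 was the higher library for 176 members in DLC1 knockout (88%), 146 in PHF5A (73%) and 185 in SF3B1 (92.5%). Among eligible features the shares were 64.1%, 57.2% and 65.6%. Eligible features that were no members but had all 6 knockouts above both controls leaned the same way, at 77.4%, 68.6% and 83.4%. The median log2 ratio of guide 1 to guide 2 was 0.394, 0.257 and 0.367 in members and 0.0984, 0.0678 and 0.112 in eligible features. In 128 members (64%) guide 1 was higher in all 3 knockouts, and in 2 (1%) guide 2 was. Of eligible features that were no members but had all 6 knockouts above both controls, 50.8% had guide 1 higher in all 3 and 4.07% guide 2.

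The mitochondrial share moved with the guide number. It was 9.65% with guide 1 and 15.7% with guide 2 of DLC1, 8.01% and 19.6% for PHF5A and 9.44% and 18.0% for SF3B1, and its part in the members' levels was not tested. Control replicate 1, with the higher mitochondrial share of the controls, was the higher control for 68.5% of members and 61.7% of eligible features.

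Guide 1 was tested against guide 2 over the 6 knockout libraries with the target as a block. EdgeR's quasi-likelihood test called 0 members in either direction, and 0 of all 15962 features (0.0%). At an unadjusted p under 0.05, 64 members were higher with guide 1 (32%, against 7.22% of all features) and 3 with guide 2 (1.5%, against 8.53%). DESeq2 called 12 members (6%, against 1.46% of all features), all higher with guide 1. Without either DLC1 library, which removes that target from the comparison, edgeR called 40 (20%, against 14.7% to 14.8% of all), 38 of them higher with guide 1. In the edgeR fit over all 6 knockout libraries the members' median log2 ratio was 0.257, against 0.0117 for all features. Single members ran from -0.475 to 0.904 there. The same 6 knockout libraries chose the members. Eligible non-members with all 6 knockouts above both controls also leaned to guide 1, as given above. Nothing particular to the members is therefore read from these shares. The labels do not say whether the guide number stands for anything shared between targets, such as a batch.

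**Figure D4:**
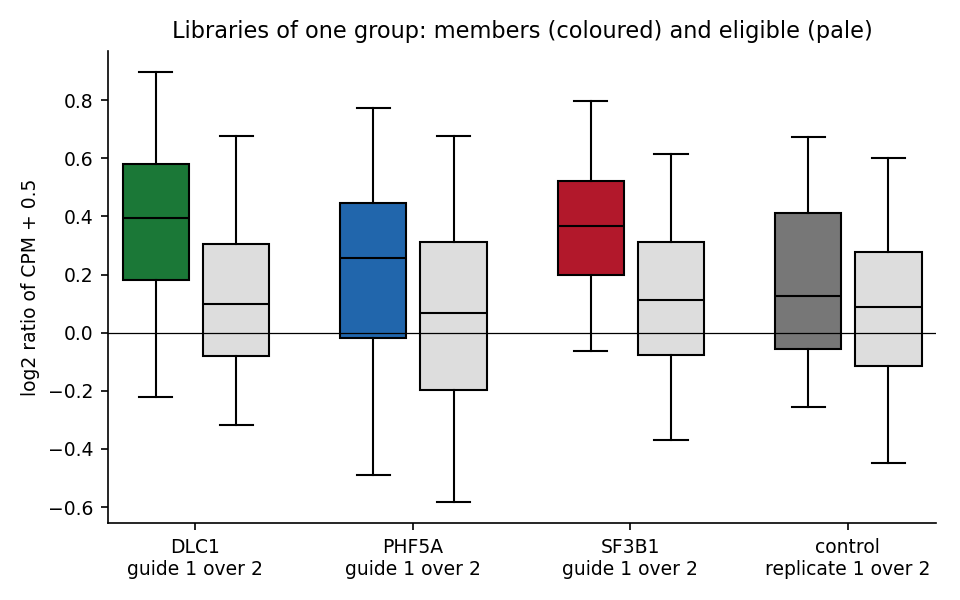
Boxes show the log2 ratio of CPM + 0.5 between the 2 libraries of each group, for the 200 members (coloured) and the eligible features (pale), with the median, the quartiles and whiskers at the 5th and 95th percentiles. Members' medians were 0.394, 0.257 and 0.367 for the DLC1, PHF5A and SF3B1 guides and 0.128 for the controls, each above that of eligible features.

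The rule had used span only as a limit, and members had longer genomic spans than the features they were drawn from. Their median span was 37.4 kb (quartiles 18.9 and 74.1 kb), against 18.6 kb (8.04 and 42.6 kb) for eligible features. Spans over 30 kb made up 122 of 200 members, or 61.0% (exact binomial 95% interval 53.9 to 67.8), against 34.8% (33.8 to 35.8) of eligible features. The interval treats genes as independent.

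By class of span, the rule took 6 of 544 eligible features of 1 to 3 kb (1.1%) and 14 of 2210 of 3 to 10 kb (0.633%). It took 58 of 3044 of 10 to 30 kb (1.91%), 92 of 2358 of 30 to 100 kb (3.9%) and 30 of 737 of 100 to 300 kb (4.07%). The share thus rose with span above 3 kb and levelled off past 30 kb. Within the list, where no ratio could lie below 1.906, the median rule ratio ran from 2.11 in both short classes to 2.21 in the longest. Over all eligible features the median ratio rose with span, at 0.587, 0.748, 0.899, 1.01 and 1.02 from the shortest class to the longest.

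**Figure D5:**
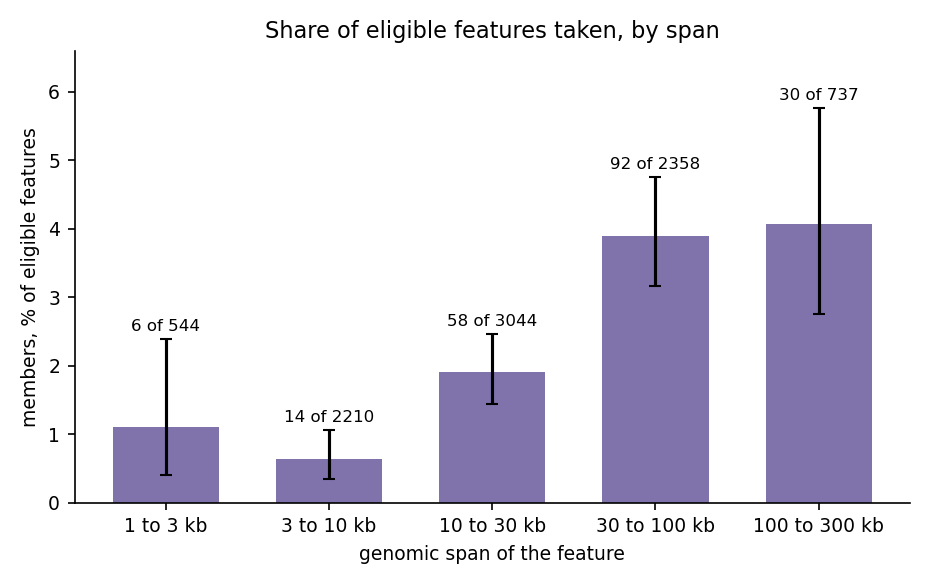
Bars give the percentage of eligible features taken as members in each class of genomic span, starting at 0, with exact binomial 95% intervals and the counts above them. The share was 0.633% at 3 to 10 kb and 4.07% at 100 to 300 kb.

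Level in the controls was tied to both. Of the members, 184 lay in the tertile of eligible features with the lowest control level (up to 19.3 CPM), 15 in the middle and 1 in the highest. The rule divided by the higher control, so the choice itself favoured features of low control level. Within the lowest tertile 61.4% of members and 42.5% of eligible features spanned over 30 kb, and in the middle 60% and 35.6%. Within these 2 tertiles members thus had the larger share of long spans, as over the whole list, while the 1 member of the highest tertile spanned less than 30 kb. Eligible features outside the list that had all 6 knockouts above both controls had a median span of 30.5 kb, with 50.6% over 30 kb.

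Members lay on all 25 chromosomes of the rule. The share of eligible features taken ran from 0.613% on chromosome 21 (1 of 163) to 4.06% on chromosome 7 (13 of 320), and chromosome 1 gave the most members, 31 of 1262. Chromosomes 1 to 10 held 66% of members and 66% of eligible features. The plus strand held 50.5% and 50.2%. Another feature overlapped 48 members on the opposite strand (24%, against 25.9% of eligible features) and 13 on the same strand (6.5%, against 9.33%). These overlaps are of whole genomic spans, and whether they reach counted sequence was not examined. Whether reads of the overlapping feature entered the counts of those members was therefore not tested. Within 1 Mb of the first or last feature of a chromosome lay 12 members (6%), against 10.7% of eligible features. Of these shares of members, that near chromosome ends was the one whose exact binomial interval (3.14% to 10.2%) left out the share of eligible features. The intervals treat genes as independent and were neither adjusted for the number of shares nor matched for span or level. A lack of members near chromosome ends was not tested.

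Some members lay close together. Of the 200, 34 (17%, exact binomial 95% interval 12.1 to 22.9) had another member within 100 kb. The same share among eligible features was not computed, so 17% has no background here and no clustering is read from it. The nearest pair, on chromosome 8, runs in divergent directions with 1393 bp between a feature on the minus strand (7100942 to 7111140, rank 13) and one on the plus strand (7112534 to 7151255, rank 12). The first stood at 0.845 and 0.768 CPM in the controls and 3.61 to 9.65 CPM in the knockouts, and the second at 2.96 and 2.09 and at 10.1 to 17.5 CPM. The first was highest with the guide 2 library of PHF5A and the second with the guide 1 library of SF3B1, so this pair peaked in different libraries. Whether its members followed each other within the knockouts was not tested.

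The second pair lies on the plus strand of chromosome 1 (35566490 to 35612114 and 35613872 to 35617983, ranks 67 and 154) with 1757 bp between. The first stood at 1.97 and 1.61 CPM in the controls and 5.26 to 9.46 in the knockouts, and the second at 3.8 and 2.72 and at 8.08 to 12.4. The third pair lies on the plus strand of chromosome 5 (9681277 to 9738117 and 9744698 to 9779883, ranks 33 and 79) with 6580 bp between. Its first feature went from 9.79 and 7.05 to between 26 and 46.5 CPM, highest in PHF5A, and its second from 8.45 and 6.49 to between 19.7 and 53.9 CPM, highest in SF3B1.

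Features next to members were read only where they were not members themselves, so neighbours taken by the rule are left out. As a group they rose less than the members, which follows from the choice of members, so nothing is read from it. Their medians lay slightly above those of all tested non-members, while their share called raised was lower in DLC1 and PHF5A knockout. There were 385 tested features directly beside a member, at a median distance of 4.54 kb and with a median span of 16.3 kb. Of these, edgeR called 27 raised and 27 lowered in DLC1 knockout (7.01% each). Among all 13469 tested non-members of the same chromosomes, which include the 385, the shares were 9.34% and 7.59%. In PHF5A knockout 62 were raised and 46 lowered (16.1% and 11.9%, against 17.0% and 13.4%). In SF3B1 knockout 41 were raised and 13 lowered (10.6% and 3.38%, against 10.2% and 4.67%). The neighbours' median log2 fold changes were 0.148, 0.237 and 0.12, against 0.104, 0.0983 and 0.0482 for all those non-members. The members' medians were 1.53, 1.85 and 1.60.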

How the data were processed

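For 8 libraries the authors deposited unnormalized read counts, 1 value per Ensembl gene. Per the submitters' processing notes reads were handled with Trimmomatic 0.39, STAR 2.7.11b and featureCounts 1.5.3, with FastQC 0.12.1 also named, on GRCg6a. The sources used here give neither a strand setting nor an annotation release. Per the labels' protocols the libraries were made with a stranded kit for polyadenylated RNA. All 8 count columns matched a labelled sample. The deposited length, in bp, equalled the span from start to end in 100% of rows.

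Members, gene groups and tests were chosen with earlier results of these data known. Fits used edgeR 4.0.16 in R 4.3.3 with 4 groups over all 8 libraries, filterByExpr, TMM, robust quasi-likelihood dispersion and Benjamini-Hochberg adjustment. DESeq2 1.42.0, other scalings, no filter, covariates and left-out libraries were tried as alternatives. The edgeR step was tested on simulated counts. Wilson and exact binomial 95% intervals and the floor of 3 counts cover counting error only, since reads were not molecule counts. The comparison with left-out libraries, neighbouring features and tertiles of control level were added after the data were seen. Named members followed a fixed rule: the 10 of highest ratio, those at the edge, the extremes of level, span and spread, the 3 nearest pairs and the 3 features most like the first.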

Additional observations from a re-analysis of the deposited data

How the results depend on the processing

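Members had a positive log2 fold change in every knockout under all 16 alternative fits, the lowest being 0.671. By the rule every knockout library of a member lay above both controls, so this sign is a property of the choice and nothing is read from it. Leaving out 1 library, members called raised ran from 60 to 200 in DLC1, 190 to 200 in PHF5A, 54 to 200 in SF3B1 and 52 to 198 in all 3 knockouts. With the W share as a covariate 1 was called in SF3B1 and 1 in all 3. With the replicate number as a block 200 were called raised in each knockout and in all 3. Of all features 14.9%, 20.7% and 14.7% were called raised there in DLC1, PHF5A and SF3B1, and 7.2% in all 3. The block fit called 9 members between SF3B1 and DLC1 and 4 between SF3B1 and PHF5A. The deviations of same-numbered libraries had r from -0.221 to 0.281 over the pairs of groups, not above 0.1 in all, and the labels name nothing shared by a number, so the libraries were not treated as paired. Guide number itself was compared over the targets above, but what the number might stand for was not tested. Between PHF5A and DLC1, SF3B1 and DLC1, and SF3B1 and PHF5A, DESeq2 called 2, 8 and 4 members and a fit with no filter on low counts 6, 8 and 10. With only the groups compared, 5 were called between SF3B1 and DLC1. Shares of all features called between knockouts are not given for these alternative fits, so nothing is read from their member counts. Leaving out 1 library, the calls ran from 0 to 0, 0 to 4 and 0 to 1. Between guides DESeq2 called 12, no filter gave 1, no target block gave 0, and leaving out 1 library gave 0 to 40. The cause of these shifts was not tested. The rule kept 110 to 193 members without 1 library and 137 to 192 under other settings. Members over 30 kb stayed at 56.0% to 66.5%. Those with another member within 100 kb made up 9% with a cap of 1.5 and 12% to 17.5% without 1 library. The share of all calls that rose was, in the order DLC1, PHF5A, SF3B1, 56.8%, 57.1% and 68.6%, then 89.4%, 87.7% and 97.4% with library size alone, 76.4%, 78.2% and 92.7% with non-mitochondrial library size and 47.7%, 49.7% and 51.9% with DESeq2. In the same order, features called raised numbered 1616, 2792 and 1721, against 3560, 5029 and 3846 with library size alone, 2590, 4275 and 3019 with non-mitochondrial library size, 2322, 3228 and 2299 with the replicate block and 1106, 2389 and 1 with the W share. Leaving out 1 library they ran from 186 to 2011, 1382 to 2616 and 137 to 2055.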
